A study of Mus musculus with 8 samples.

Results

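The levels of 10 genes of the cytoskeleton and the cell membrane, of 55487 genes in the count table, were followed in 8 tumors. These were Ccdc68, Tppp, Tppp3, Add1, Add2, Add3, Emp1, Emp2, Emp3 and Pmp22. Of these, 4 (Ccdc68, Tppp, Add2 and Emp2) were picked because their levels were higher in Ago2 knock-out than in wild-type tumors, with no threshold stated, so their difference between genotypes is given as a description and without a test. The other 6 are their family members (paralogs), chosen by name, and were tested. All 10 passed the filter on low counts, which kept 16061 genes.

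The tumors were Lewis lung carcinoma (LLC), a mouse lung cancer cell line implanted under the skin of C57BL/6J mice and taken at day 12. Of the 8 tumors, 4 grew from wild-type LLC cells and 4 from LLC cells labelled Ago2 knock-out (ΔAgo2), with no drug or antibody treatment named for either group, and every library carried batch label 1. Per the study's methods, the ΔAgo2 cells were made with a lentiviral CRISPR guide and come from 1 cell clone, while the mice kept their own Ago2, and the hosts were females bought at 6 to 8 weeks of age. A clone and the loss of Ago2 therefore cannot be told apart here. In bulk tumors, a lower level can mean fewer cells of a type or less RNA per cell, and the 2 cannot be told apart either.

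Argonaute 2 (Ago2) is the protein that carries microRNAs to matching transcripts, mostly in 3′UTRs, and can cut a fully matched RNA. Ccdc68 is a protein of the subdistal appendages of the centriole, which anchor microtubules. Tppp (tubulin polymerization promoting protein) binds and bundles microtubules and is best known from myelin-forming oligodendrocytes, and Tppp3 is a shorter relative. Adducins (Add1, Add2, Add3) cap the fast-growing ends of actin filaments and tie them to spectrin under the plasma membrane. Add2 is known from red blood cells and brain, whereas Add1 and Add3 are widely expressed. The epithelial membrane proteins (Emp1, Emp2, Emp3) and Pmp22, a component of peripheral myelin, are small proteins with 4 membrane spans that belong to the claudin superfamily.

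The sequence upstream of 3 of the 4 picked genes is shown. These genes share a direction because they were picked for higher levels in ΔAgo2 tumors, so the windows are a description and no sign of shared control. Each line gives up to 250 bases before the RefSeq transcript start (build GRCm38.p6), written 5′ to 3′ on the gene's strand, with the GC box GGGCGG, or its reverse complement, in capitals. The Tppp window lies at chr13:74009169-74009406 (+), that of Add2 at chr6:86028431-86028680 (+) and that of Emp2 at chr16:10313969-10314218 (−). For Tppp, the 12 bases that GENCODE already places inside the gene are left out.
Tppp: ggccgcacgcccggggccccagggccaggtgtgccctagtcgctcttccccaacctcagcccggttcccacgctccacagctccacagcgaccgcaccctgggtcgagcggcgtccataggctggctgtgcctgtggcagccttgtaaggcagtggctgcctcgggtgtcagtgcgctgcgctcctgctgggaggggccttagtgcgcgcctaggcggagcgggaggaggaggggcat
Add2: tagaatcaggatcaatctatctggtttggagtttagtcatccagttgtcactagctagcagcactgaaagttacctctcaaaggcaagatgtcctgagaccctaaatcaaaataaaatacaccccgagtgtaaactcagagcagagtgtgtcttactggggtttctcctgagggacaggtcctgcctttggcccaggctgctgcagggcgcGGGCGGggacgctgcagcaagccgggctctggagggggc
Emp2: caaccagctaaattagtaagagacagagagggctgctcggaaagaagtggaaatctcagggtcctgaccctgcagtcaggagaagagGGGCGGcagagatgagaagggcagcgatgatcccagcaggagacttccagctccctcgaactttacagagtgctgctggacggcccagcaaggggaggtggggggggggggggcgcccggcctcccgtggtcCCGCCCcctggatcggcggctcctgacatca

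A GC box was found on either strand in all 3 of these 250-base windows, with 1 in Tppp, 1 in Add2 and 2 in Emp2, and the box of Tppp lies wholly within the bases left out above. Of the 5 paralogs with such windows, Add1, Add3 and Pmp22 also held a GC box, in 5 of the 12 paralog windows in all, and Emp1 and Emp3 held none. Among 32851 RefSeq promoter windows of the same length, 32.7% hold a GC box. The TATA box TATAAA, the CCAAT box, the AP-1 motif TGANTCA and the E-box CACGTG were searched on both strands too, and none of these letters occur in the 3 windows. They occur in 12.4%, 33.8%, 6.75% and 6.02% of all windows, respectively. GC content was 71.6% in the Tppp window, 53.2% in Add2 and 62.8% in Emp2, beside a median of 52.4% over all windows, and they held 19, 6 and 11 CpG sites beside a median of 6. A match is a description of the letters and not evidence of a bound factor. RefSeq windows were matched for 8 of the 10 genes. Ccdc68 and Tppp3 were not analysed in this way.

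Since Ago2 acts through microRNAs, 3′UTRs were searched for 7-base matches to the seeds (bases 2 to 8) of 14 microRNAs, out of 15 chosen by name. No 2 of the 14 share a seed. miR-124-3p had no entry. The RefSeq mature sequences with the most matches among the 10 genes are shown with the seed in capitals.
miR-34a-5p: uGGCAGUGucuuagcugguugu
miR-29a-3p: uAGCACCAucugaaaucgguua
Their matches in picked genes are shown with 22 bases of the 3′UTR of the longest coding transcript, as DNA 5′ to 3′, with the match in capitals.
Tppp, miR-34a-5p, from 3′UTR base 1235: gctatcttcccCACTGCCatgg
Tppp, miR-34a-5p, from 3′UTR base 3620: ttttcagggaaCACTGCCtgtc
Add2, miR-34a-5p, from 3′UTR base 252: cctgttttcaaCACTGCCtagt
Add2, miR-29a-3p, from 3′UTR base 2775: gagggttgaacTGGTGCTactg
Emp2, miR-29a-3p, from 3′UTR base 2455: cagctctcaatTGGTGCTtatc

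Add2 had both the most matches and the longest 3′UTR of the 10 genes. Its 5628 bases held matches to 7 of the 14 microRNAs, and 2.69% of the genes searched have a longer 3′UTR. Tppp (4338 bases) held matches to 2 microRNAs, miR-34a-5p and miR-30a-5p. Emp2 (2679 bases) held a match to 1 microRNA, as did the 449-base 3′UTR of Ccdc68, to miR-200b-3p. Among the paralogs, Pmp22 matched 3 microRNAs, Add3 2, Add1 1, and Tppp3, Emp1 and Emp3 none. The median over 13618 genes with a 3′UTR was 1 microRNA and 1111 bases. miR-34a-5p matches lay in Tppp, Add2, Add1 and Pmp22, and 16.7% of all these genes hold one. miR-29a-3p matches lay in Add2, Emp2 and Pmp22, against 15.0% of all. Tppp3 and Emp1 held no match in this transcript, although the union of all annotated 3′UTRs of Tppp3 held matches to 2 microRNAs.

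Total counts ran from 7903288 (wild-type tumor 4) to 268564145 (ΔAgo2 tumor 4), so low genes were measured far less finely in some libraries than in others. Levels are given as CPM (a gene's share of a library's counts, scaled to a common total), scaled by the trimmed mean of M-values (TMM), and a count of 0 allows up to 0.430 CPM in wild-type tumor 4 and 0.0105 CPM in ΔAgo2 tumor 4 (3 counts, counting error only). Wild-type tumor 4 and ΔAgo2 tumor 1 had the lowest TMM factors (0.883 and 0.909) and deviated from their groups together (r = 0.32 across genes). The Ago2 transcript itself was not lower in ΔAgo2 tumors: it measured 129.9, 195, 151.3 and 138 CPM in wild-type and 118, 355, 215 and 270.1 CPM in ΔAgo2 tumors (log2 fold change 0.64 ± 0.30 SE, n = 4 per group, edgeR adjusted p = 0.205). It was called higher with limma voom (log2 fold change 0.86, adjusted p = 0.0140) and without ΔAgo2 tumor 1 (0.85, edgeR adjusted p = 0.0441). A CRISPR edit need not lower a transcript, and host cells carry the gene, so this level does not check the labels.

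Across the genome, 1.36% of tested genes were called higher in ΔAgo2 tumors and 2.12% lower (edgeR quasi-likelihood test, Benjamini-Hochberg adjusted p under 0.05), and the median log2 fold change was 0.04. Of the 6 tested paralogs, 1 (Tppp3) was called higher and none lower. DESeq2's Wald test and limma voom, run as alternatives, called Tppp3 and Emp1, where they called 13.1% and 27.9% of all genes they tested (either direction). An unadjusted edgeR p under 0.05 was found for 26.7% of tested genes. Log2 fold changes were positive for 8 of the 10 genes, which are the 4 picked for this direction and 4 of the 6 paralogs. In 6 of the 10 genes all 4 ΔAgo2 values lay above all 4 wild-type values, which is the case for 8.05% of tested genes, and the reverse, true of 8.36% of tested genes, occurred in none. As 4 of these 6 were picked for that very pattern, only Tppp3 and Emp1 add to it. Without wild-type tumor 4 and ΔAgo2 tumor 1, the pair of libraries that deviated together, the log2 fold changes were 5.73 for Ccdc68, 2.96 for Tppp, 1.93 for Add2, 1.70 for Emp2, 2.07 for Tppp3 (edgeR adjusted p = 0.0179) and 0.87 for Emp1 (edgeR adjusted p = 0.0928). For the 4 picked genes, being raised in the knock-out was the basis of the choice. Of the paralogs, Tppp3 passed the test and the other 5 did not.

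**Figure D1:**
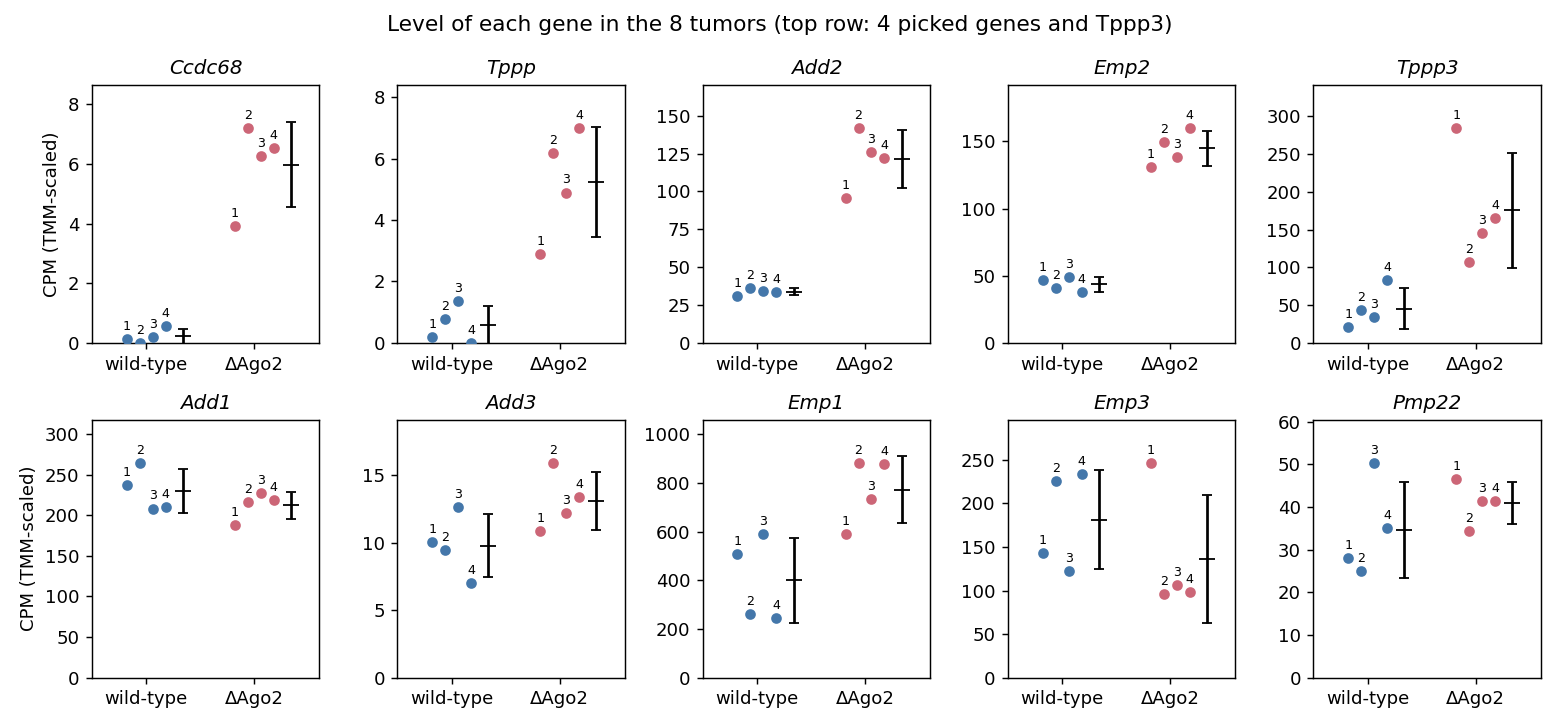
Level of each of the 10 genes in CPM (y axis, linear, TMM-scaled, from 0) in the wild-type (blue) and ΔAgo2 (red) tumors; each point is 1 tumor marked with its replicate number, and the bar beside it is the mean ± SD of 4 tumors. The groups do not overlap in Ccdc68, Tppp, Add2, Emp2, Tppp3 and Emp1.

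Ccdc68 (ENSMUSG00000038903.13, chromosome 18, 69925426 to 69969484, plus strand, GRCm38, 12 exon blocks) was close to absent from wild-type tumors. Wild-type tumors 1 to 4 measured 0.131, 0, 0.189 and 0.573 CPM, and ΔAgo2 tumors 1 to 4 measured 3.92, 7.20, 6.27 and 6.52 CPM. The wild-type values rest on 7, 0, 9 and 4 reads, and the ΔAgo2 values on 191, 821, 210 and 1862. Every ΔAgo2 tumor thus lay above every wild-type tumor, and the lowest of them stood 6.83-fold over the highest wild-type value, which itself rests on 4 reads. The log2 fold change was 5.16 ± 0.66 (SE), the largest positive one of all genes tested. It ranged from 2.80 on log2(TPM + 1), where TPM is a length-scaled level with a common total in each library, to 5.73 without wild-type tumor 4 and ΔAgo2 tumor 1. Ccdc68 shares 230 exon bases with the antisense gene 1700061H18Rik, which had no reads in 7 libraries and 4 in ΔAgo2 tumor 4.

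Tppp (ENSMUSG00000021573.15, chromosome 13, 74009407 to 74035753, plus strand, 4 exon blocks) was also low in wild-type tumors. Its CPM there was 0.187, 0.763, 1.37 and 0, against 2.89, 6.17, 4.90 and 7.0 in ΔAgo2 tumors. Reads numbered 10, 16, 65 and 0 in wild-type and 141, 703, 164 and 1999 in ΔAgo2 tumors. The groups did not overlap, with the lowest ΔAgo2 value 2.12-fold above the highest wild-type value. The log2 fold change was 3.02 ± 0.69 (SE), and it ranged from 1.66 on log2(TPM + 1) to 4.21 with limma voom. ΔAgo2 tumor 1 was the lowest of its group for Ccdc68 and Tppp, as it was for Add2 and Emp2.

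Tppp3 (ENSMUSG00000014846.12, chromosome 8, 105467493 to 105471526, minus strand) was higher in ΔAgo2 tumors, as was its picked relative Tppp. Over the 8 tumors, the log2 CPM of these 2 genes gave a Pearson r of 0.50. The CPM of Tppp3 was 20.9, 43.9, 33.8 and 83.4 in wild-type and 285, 108, 145 and 165 in ΔAgo2 tumors. All ΔAgo2 values lay above all wild-type values, by 1.29-fold at the nearest, although the spread within each group was wide (45.5 ± 27.0 against 176 ± 76.4 CPM, SD, n = 4). This gave a log2 fold change of 1.96 ± 0.43 (SE, edgeR adjusted p = 0.0364), and Tppp3 was the only paralog past the threshold. In contrast to Ccdc68 and Tppp, ΔAgo2 tumor 1 was the highest of its group here. Wild-type tumor 4, which had no Tppp reads, was the highest wild-type tumor for Tppp3. The call was lost without wild-type tumor 2 (edgeR adjusted p = 0.117), ΔAgo2 tumor 3 (0.0720) or ΔAgo2 tumor 4 (0.10), with log2 fold changes of 1.95, 2.04 and 2.00.

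Per unit of length, nearly all of the TPPP family signal was Tppp3. On the TPM scale deposited by the authors, Tppp3 made up 99.3% ± 0.76 of the family in wild-type and 98.7% ± 0.70 in ΔAgo2 tumors (SD, n = 4), with Tppp making up nearly all of the rest. The summed TPM of the family was 61.3 ± 24.6 and 279 ± 54.7, respectively. Tppp2, the third family member, had 2 reads in wild-type tumor 3 and none in the other libraries. The order Tppp3 over Tppp therefore held in all 8 tumors, by far more than the spread between them.

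Markers of ciliated cells, in which Tppp3 and centriolar proteins are abundant, were close to the floor. Of 10 markers, Dnah5, Pifo and Sntn had no reads in any library, only Ccdc39 and Rsph1 passed the filter, and neither was called by edgeR or DESeq2, although both had an unadjusted edgeR p under 0.05 and limma voom called both. The 10 markers summed to 0.693 to 1.00 CPM in wild-type and 1.43 to 2.07 CPM in ΔAgo2 tumors, without overlap. CPM is not scaled for gene length, so this sum cannot be ranked against the level of a single gene. The part of ciliated cells in the Tppp3, Tppp and Ccdc68 levels was not tested.

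Among the adducins, only the member picked for higher levels in ΔAgo2 tumors had groups that did not overlap. Add2 (ENSMUSG00000030000.10, chromosome 6, 86028681 to 86124409, plus strand, 18 exon blocks) measured 31.0, 36.2, 34.5 and 33.5 CPM in wild-type and 96.0, 142, 126 and 122 CPM in ΔAgo2 tumors. The wild-type values were tight, with a coefficient of variation of 6.50%, against 15.7% in ΔAgo2 tumors, and the nearest values of the groups were 2.65-fold apart. Group means differed by a log2 fold change of 1.84 ± 0.19 (SE), or 3.59-fold on the CPM scale. It lay between 1.55 (gene length correction) and 2.04 under all 23 alternatives. Part of Add2 (356 exon bases) overlaps the antisense gene Gm44089, which measured 0.143 to 0.477 CPM in wild-type and 1.25 to 1.66 CPM in ΔAgo2 tumors. As the strand setting of the counting is not given in the sources used here, reads of this stretch may belong to either gene.

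Add1 (ENSMUSG00000029106.14, chromosome 5, 34573664 to 34632308, plus strand), the widely expressed alpha adducin, measured 238, 265, 208 and 209.8 CPM in wild-type and 188, 216, 227 and 218 CPM in ΔAgo2 tumors. The groups overlapped, although wild-type tumors 1 and 2 lay above every ΔAgo2 tumor and ΔAgo2 tumor 1 below every wild-type tumor. The log2 fold change of −0.12 ± 0.18 (SE, edgeR adjusted p = 0.692) was within its error and turned to 0.10 on the log2(TPM + 1) scale. Add3 (ENSMUSG00000025026.15, chromosome 19, 53140443 to 53247399, plus strand), gamma adducin, measured 10.1, 9.44, 12.7 and 7.02 CPM in wild-type and 10.9, 15.9, 12.2 and 13.4 CPM in ΔAgo2 tumors. These groups overlapped too, with a log2 fold change of 0.41 ± 0.24 (SE, edgeR adjusted p = 0.293). The ratio of Add3 to Add1 within a tumor was 0.0449 to 0.0816 in wild-type and 0.0722 to 0.0991 in ΔAgo2 tumors on the TPM scale. This difference of 0.55 in log2 did not pass an exact two-sided permutation test over the 70 assignments of the tumors (p = 0.0857, adjusted over 4 ratios 0.152, smallest p the design allows 0.0286).

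Compared per length, Add1 was the most abundant adducin, then Add2, then Add3, in each of the 8 tumors. Add2 nevertheless went from 10.6% ± 1.04 of the adducin TPM in wild-type to 30.7% ± 2.05 in ΔAgo2 tumors (SD, n = 4), while Add1 went from 84.6% ± 1.87 to 64.0% ± 2.48. The share of Add3 was 4.87% ± 1.29 and 5.28% ± 0.54. In TPM, Add2 and Add3 measured 8.84 ± 1.58 and 4.16 ± 1.45 in wild-type tumors but 38.03 ± 12.7 and 6.52 ± 2.26 in ΔAgo2 tumors. Summed TPM of the 3 adducins was 84.7 ± 18.9 and 122 ± 34.6, which overlap, with 72.6 in ΔAgo2 tumor 1 below 3 of the wild-type tumors.

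Red blood cells, where Add2 is part of the membrane skeleton, were followed by their marker transcripts. The 7 red cell markers found in the table summed to 54.7 to 204 CPM in wild-type and 39.2 to 148.6 CPM in ΔAgo2 tumors, Rhag had no reads, and none of the 6 tested was called by edgeR, DESeq2 or limma voom (1 had an unadjusted edgeR p under 0.05). The part of red blood cells in the Add2 levels was not tested.

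**Figure D2:**
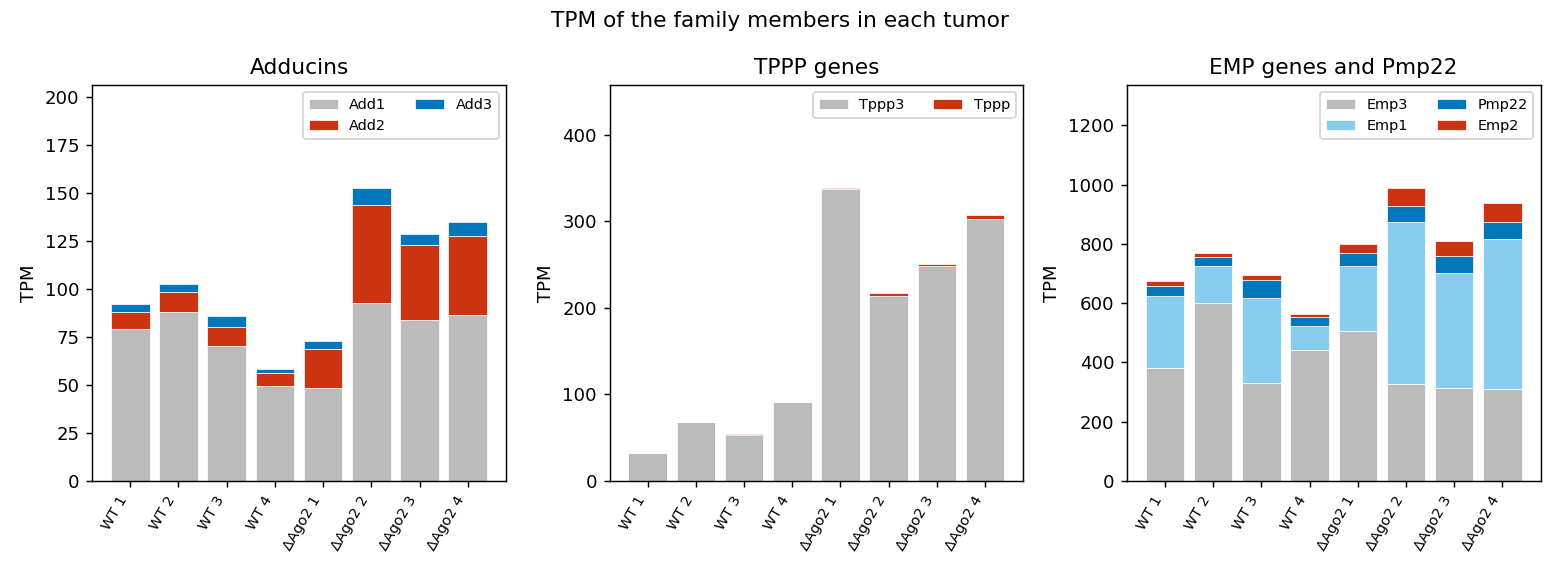
Stacked TPM (y axis, linear, from 0) of the adducins, the TPPP genes and the EMP genes with Pmp22 in each of the 8 tumors (x axis, WT for wild-type). Add2 and Emp2 (red) take a larger part of their family in ΔAgo2 tumors, while Tppp (red) is barely visible beside Tppp3.

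In the EMP family the picked gene was the least abundant member of wild-type tumors per unit of length (TPM). Emp2 (ENSMUSG00000022505.9, chromosome 16, 10281749 to 10313968, minus strand, 5 exon blocks), known from lung and other epithelia, measured 46.5, 40.7, 49.3 and 37.6 CPM in wild-type and 131, 149.6, 138 and 159.96 CPM in ΔAgo2 tumors. Both groups were tight (coefficients of variation of 12.3% and 8.83%), and the nearest values were 2.65-fold apart. The log2 fold change was 1.73 ± 0.18 (SE), or 3.32-fold between the group means, and ranged from 1.5 to 1.95 under all 23 alternatives.

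Emp1 (ENSMUSG00000030208.15, chromosome 6, 135362545 to 135383173, plus strand) measured 508, 260.4, 591 and 244 CPM in wild-type and 592, 884, 736 and 879.9 CPM in ΔAgo2 tumors. The groups did not overlap, but only just: ΔAgo2 tumor 1 at 592.42 CPM lay next to wild-type tumor 3 at 590.94 CPM, while wild-type tumors 2 and 4 were far lower. The log2 fold change of 0.95 ± 0.31 (SE) missed the threshold (edgeR adjusted p = 0.102), whereas DESeq2 (0.0408) and limma voom (0.0167) called it, and the adjusted p ran up to 0.307 over the other alternatives.

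Emp3 (ENSMUSG00000040212.12, chromosome 7, 45918023 to 45921404, minus strand) measured 143, 226, 123 and 234 CPM in wild-type and 247, 95.8, 106 and 98.1 CPM in ΔAgo2 tumors. ΔAgo2 tumors 2, 3 and 4 lay below all wild-type tumors and ΔAgo2 tumor 1 above all of them. This left a log2 fold change of −0.41 ± 0.35 (SE, edgeR adjusted p = 0.460). Without ΔAgo2 tumor 1 it was −0.87 (the lowest of any setting), and with a correction for GC content it was 0.01, with no call in either case. Pmp22 (ENSMUSG00000018217.12, chromosome 11, 63128982 to 63159547, plus strand) measured 28.0, 25.03, 50.4 and 35.1 CPM in wild-type and 46.5, 34.4, 41.5 and 41.3 CPM in ΔAgo2 tumors. These ranges overlapped, and the log2 fold change was 0.24 ± 0.24 (SE, edgeR adjusted p = 0.537).

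The order of the family by TPM differed between tumors. Emp3 came first, followed by Emp1, Pmp22 and Emp2, in all 4 wild-type tumors and in ΔAgo2 tumor 1. In ΔAgo2 tumors 2, 3 and 4 Emp1 came first, and in ΔAgo2 tumors 2 and 4 Emp2 also passed Pmp22. The share of Emp2 was 1.99% ± 0.40 in wild-type and 5.87% ± 1.17 in ΔAgo2 tumors, and that of Emp1 was 27.1% ± 13.6 and 46.1% ± 12.9 (SD, n = 4). Emp3 took 65.1% ± 15.6 and 42.0% ± 14.3. Shares of Emp1 and Emp3 overlapped between genotypes, and the ratio of Emp3 to Emp1 ran from 1.15 to 5.32 in wild-type and from 0.601 to 2.31 in ΔAgo2 tumors (exact two-sided permutation p = 0.114, adjusted 0.152). The ratios Emp1 over Pmp22 (exact permutation p = 0.0857, adjusted 0.152) and Emp3 over Pmp22 (exact permutation p = 0.229, adjusted 0.229) did not pass either. Pmp22 and Emp2 were thus close neighbors in ΔAgo2 tumors, at 53.0 ± 6.91 and 52.5 ± 14.2 TPM, which do not differ beyond their spread, but stood at 39.0 ± 15.2 and 13.5 ± 3.39 TPM in wild-type tumors.

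Markers of the skin epithelium, where Emp1 and Emp2 are also expressed, varied widely and partly with genotype. The 10 keratinocyte markers all had positive log2 fold changes. Krt10 (2.06, edgeR adjusted p = 0.0460) and Ivl (2.80, edgeR adjusted p = 0.0456) were called higher, beside 1.36% of all tested genes. An unadjusted edgeR p under 0.05 was found for 4 of the 10, and DESeq2 called 3 and limma voom 5 (26.7%, 13.1% and 27.9% of all genes). The call of Krt10 was lost without any 1 of wild-type tumors 1, 2 and 4 or ΔAgo2 tumors 2, 3 and 4 (edgeR adjusted p up to 0.139), and that of Ivl without any 1 of tumors 2, 3 and 4 of either genotype (up to 0.146). Their sum was 567, 582, 15.2 and 170 CPM in wild-type and 522, 467, 899.5 and 904 CPM in ΔAgo2 tumors. The part of keratinocytes in the Emp1 and Emp2 differences was not tested. Schwann cell markers, relevant to Pmp22, summed to 75.5 to 95.9 CPM in wild-type and 87.0 to 116 CPM in ΔAgo2 tumors. These were mostly Mbp and Prx, and none of the 6 tested was called by edgeR or DESeq2 (1 had an unadjusted edgeR p under 0.05, and limma voom called 2).

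Some markers of other cell types also differed between genotypes. Of 10 fibroblast markers Fap was called lower, as were 2.12% of all tested genes. An unadjusted edgeR p under 0.05 was found for 6 of the 10, and DESeq2 called 3 and limma voom 5. The 10 summed to 4932 to 7283 CPM in wild-type and 2318 to 4644 CPM in ΔAgo2 tumors. Most of this sum was Col3a1, with means of 4759 and 2931 CPM, and 2 of the 10 log2 fold changes were positive. Of the neuron markers, where Add2 is also found, 3 of 5 tested were called lower (Nefl, Nefm and Prph), beside 2.12% of all tested genes. The 10 neuron markers summed to 46.7 to 65.7 and 23.5 to 35.8 CPM, and Elavl4 had no reads. Most of this sum was Syn1 (means of 44.1 and 27.9 CPM), which was not called (edgeR adjusted p = 0.111). Vwf was called lower among 10 endothelial markers (sums 363 to 580.4 and 319.5 to 389 CPM), beside the same 2.12%. Of these 10, 2 had an unadjusted edgeR p under 0.05, and DESeq2 and limma voom called 1 each. Macrophage (sums 1789 to 2280 and 1561 to 3143 CPM), pan-leukocyte (528 to 991 and 492 to 946 CPM), skeletal muscle (261 to 3685 and 53.7 to 218 CPM) and adipocyte markers (21.1 to 206 and 10.7 to 370.4 CPM) held no gene called by edgeR. Of their 10, 8, 10 and 8 genes tested, 4, 1, 10 and 0 had an unadjusted edgeR p under 0.05 (26.7% of all genes), limma voom called 4, 1, 1 and 0, and DESeq2 called 1, 1, 2 and 0 of the 10, 8, 3 and 5 to which it gave an adjusted p. Calls were lost in 10 of 23 alternatives for Prph, 9 for Fap and 15 for Vwf, while Nefl and Nefm were called in every alternative that tested them. The call of Prph was lost without any 1 of wild-type tumor 2 and ΔAgo2 tumors 2, 3 and 4 (edgeR adjusted p up to 0.111), for Fap without wild-type tumor 4 as well (up to 0.121), and for Vwf also without wild-type tumor 3 (up to 0.148).

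Lung epithelial and carcinoma markers, of the kind of tissue where Emp2 is known, summed to 532 to 1295 CPM in wild-type and 734 to 1277 CPM in ΔAgo2 tumors. None of the 8 tested was called by edgeR, 3 had an unadjusted edgeR p under 0.05, and DESeq2 called 2 and limma voom 4. Krt8 and Krt18 were the most abundant, at 315 ± 92.6 and 479 ± 273 CPM in wild-type and 424 ± 76.0 and 516 ± 153 CPM in ΔAgo2 tumors (SD, n = 4). Cdh1, the epithelial cadherin, measured 6.91, 5.01, 2.50 and 2.44 CPM in wild-type and 8.49, 10.2, 12.1 and 13.99 CPM in ΔAgo2 tumors. These groups did not overlap, as in 8.05% of tested genes, and the log2 fold change was 1.38 (edgeR adjusted p = 0.0628). Epcam, an epithelial adhesion molecule, measured 1.23 ± 0.62 and 3.04 ± 1.24 CPM (log2 fold change 1.26, edgeR adjusted p = 0.119). Krt7 (−1.15), Hopx (−0.67) and Krt19 (−0.41) went the other way. In the list, 5 of the 8 log2 fold changes were positive, with a median of 0.21. The lung lineage factor Nkx2-1 had no reads in any library. The part of these cell types in the levels of the 10 genes was not tested.

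**Figure D3:**
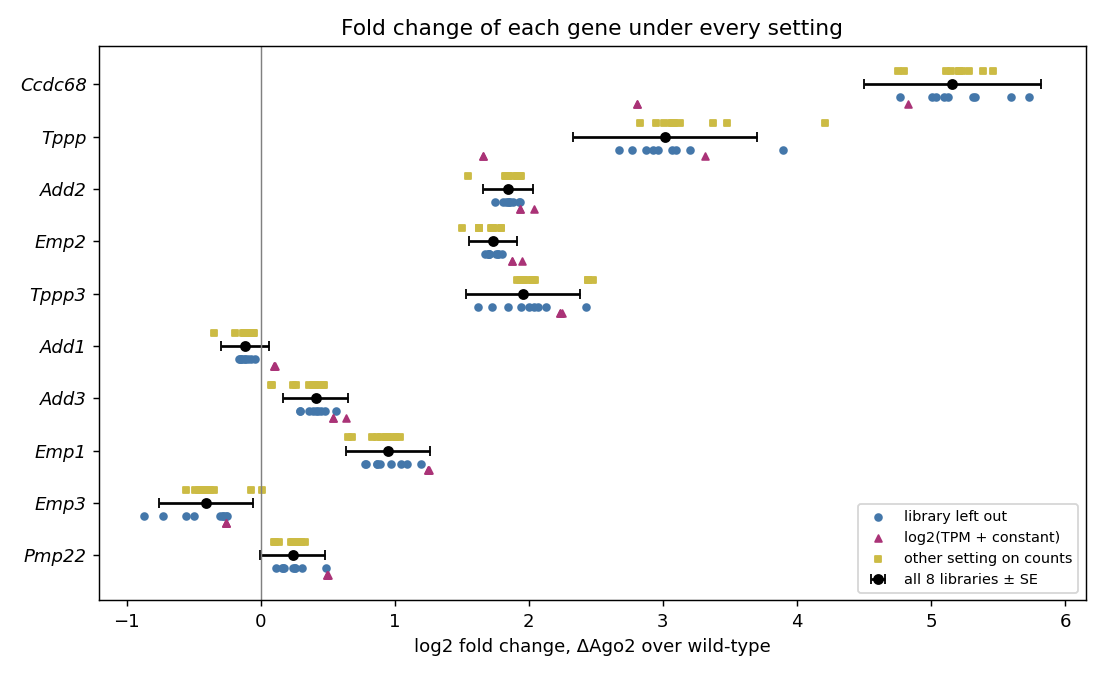
Log2 fold change (x axis, ΔAgo2 over wild-type) of each gene (y axis) with all 8 libraries (black, ± SE), with libraries left out (blue), on log2(TPM + constant) (purple triangles) and under the other settings on counts (yellow squares). The 4 picked genes and Tppp3 stay above 1.5 throughout, whereas Add1 and Emp3 have values on both sides of 0.

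Fold changes in these tumors followed the GC content of the transcript. Over 16059 genes, log2 fold change and GC content gave a Spearman rho of −0.56, taken across genes that do not count as replicates. With genes divided into 5 equal groups by GC content, the median log2 fold change fell from 0.59 in group 1 (lowest GC content) to −0.53 in group 5. Ccdc68 (43.2% GC) lay in group 1, Tppp (47.6%), Add3 (45.4%) and Emp1 (45.3%) in group 2, Emp2 (49.3%), Add1 (51.6%) and Pmp22 (48.6%) in group 3, Add2 (52.0%) in group 4, and Tppp3 (57.0%) and Emp3 (56.9%) in group 5. Among the paralogs, Tppp3 therefore stood furthest above the median of its GC group. With each library's GC trend removed, the log2 fold changes were 4.80 for Ccdc68, 2.83 for Tppp, 1.93 for Add2, 1.63 for Emp2 and 2.44 for Tppp3. The GC-corrected values of the paralogs that were not called were smaller in size: 0.65 for Emp1, 0.08 for Add3, 0.10 for Pmp22, −0.05 for Add1 and 0.01 for Emp3.

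**Figure D4:**
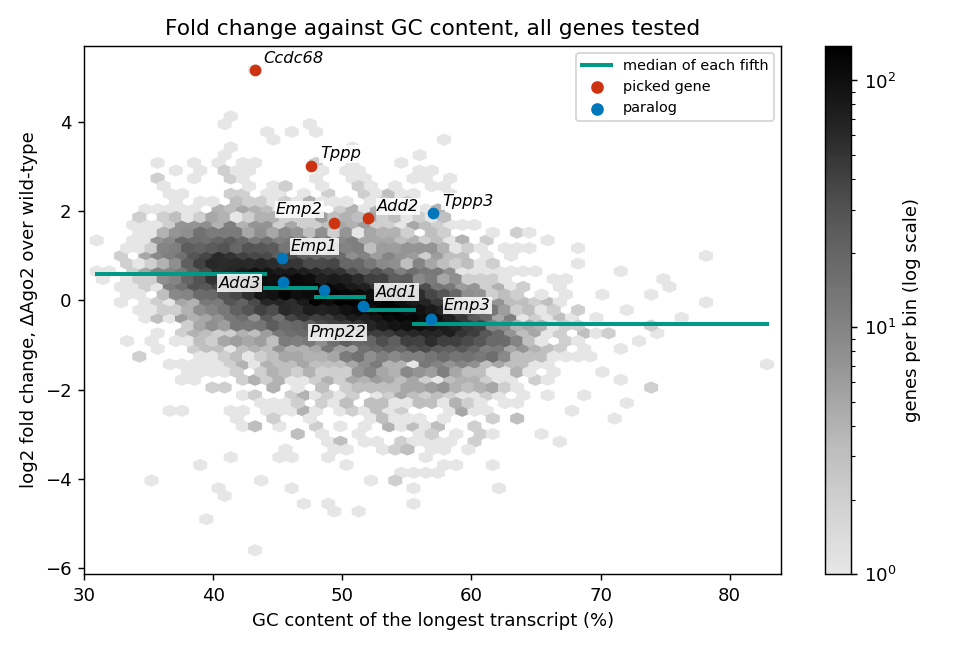
Log2 fold change (y axis, ΔAgo2 over wild-type) against GC content of the longest transcript in percent (x axis) for all tested genes, in hexagonal bins shaded by gene number on a log scale; green lines are the medians of 5 equal groups by GC content, which fall from 0.59 to −0.53. Picked genes (red) and Tppp3 (blue) lie furthest above the median of their group, Emp1 lies above it by less, and the other paralogs lie near it.

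The wider machinery around the picked genes was examined through 5 lists of related genes. Centriole appendage genes, the company of Ccdc68, were not called in either direction by edgeR (0 of 16 tested, 8 at an unadjusted edgeR p under 0.05, 2 called by DESeq2 and 6 by limma voom, beside 26.7%, 13.1% and 27.9% of all genes), with a median log2 fold change of 0.26 beside 0.04 for all genes. Among microtubule-binding genes, the functional relatives of Tppp, 0 of 21 were called by edgeR (12 at an unadjusted edgeR p under 0.05, 5 called by DESeq2 and 9 by limma voom, against the same shares of all genes), and the median was −0.12. Of 16 tubulin genes 1 was called: Tubg2, a gamma tubulin of the microtubule-nucleating complex, was lower in ΔAgo2 tumors (17.3 ± 4.67 against 6.67 ± 0.74 CPM, SD, n = 4, log2 fold change −1.38, edgeR adjusted p = 0.0177). Its call was lost without any 1 of wild-type tumor 2 and ΔAgo2 tumors 2, 3 and 4 (edgeR adjusted p of 0.0515 to 0.0878) and on each log2 TPM setting. The tubulin median was −0.13.

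Of 29 genes of the spectrin membrane skeleton, which adducins join to actin, 1 was called. Tpm2, a tropomyosin that lines actin filaments, was lower in ΔAgo2 tumors (219.8 ± 68.1 against 88.7 ± 34.6 CPM, SD, n = 4, log2 fold change −1.31, edgeR adjusted p = 0.0474), and the list median was 0.01. This call was lost without any 1 of tumors 2, 3 and 4 of either genotype (edgeR adjusted p of 0.0578 to 0.170), with the GC correction and on each log2 TPM setting. Tpm2 is also a muscle gene, and the part of muscle, whose marker sums are given above, in its level was not tested. Of the 13 tested relatives of the EMP genes in the claudin superfamily, 1 was called. Cldn12, a claudin, rose in ΔAgo2 tumors (30.8, 52.5, 47.7 and 60.7 CPM, against wild-type values of 17.9, 7.96, 15.9 and 8.46 CPM), with no overlap and a log2 fold change of 1.92 (edgeR adjusted p = 0.0128). The call was lost without wild-type tumor 2 (edgeR adjusted p = 0.0501) or ΔAgo2 tumor 4 (0.0559) and on each log2 TPM setting. In that list 11 of 13 log2 fold changes were positive, the median was 0.74, and the summed level was 77.9 to 108 CPM in wild-type and 148 to 206 CPM in ΔAgo2 tumors. Perp, a desmosome-associated protein with a log2 fold change of 1.88, did not pass (edgeR adjusted p = 0.128). Over the 5 lists, edgeR called 1 of 95 genes higher (1.05%) and 2 lower (2.11%), shares near its backgrounds of 1.36% and 2.12%. DESeq2 called 18 genes of the 5 lists and limma voom 34, where they called 13.1% and 27.9% of all genes. In the tubulin, spectrin and claudin lists, DESeq2 called 3, 3 and 5 genes and limma voom 5, 9 and 5. An unadjusted edgeR p under 0.05 was found for 4, 6 and 5 of their 16, 29 and 13 tested genes, beside 26.7% of all genes.

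**Figure D5:**
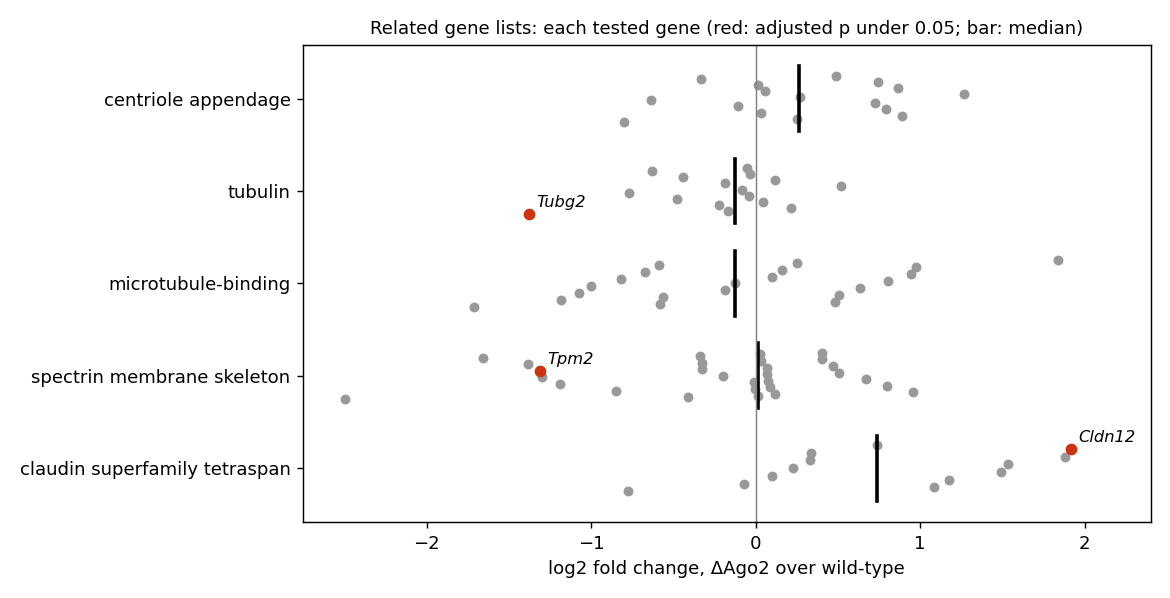
Log2 fold change (x axis, ΔAgo2 over wild-type) of each tested gene in the 5 related lists (y axis); grey points did not pass the adjusted threshold, red points did and are named, and black bars are list medians. Tubg2 and Tpm2 lie below 0 and Cldn12 above it, and the claudin superfamily has the highest median, 0.74.

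The genes whose levels were most like those of each picked gene over the 8 tumors were sought among 13063 genes with a mean of at least 1 CPM, by Pearson correlation of log2 CPM. These values are descriptions, since the 8 points share 2 genotypes, their libraries and depths. For Ccdc68 they were Rtkn2 (r = 0.98), C1ra (0.97) and Gpat3 (0.97). For Tppp they were Mob3b (0.99), Pde5a (0.97) and Ocln (0.97), the last encoding occludin, a tight junction protein with 6.19 ± 3.86 CPM in wild-type and 25.3 ± 4.26 CPM in ΔAgo2 tumors (SD, n = 4). For Add2 they were Olr1 (0.99), Frrs1 (0.98) and Cd274 (0.98), of which Olr1 encodes a receptor for oxidized lipoprotein (2.37 ± 0.40 against 40.8 ± 18.7 CPM) and Cd274 encodes PD-L1 (9.25 ± 0.51 against 19.5 ± 3.65 CPM). For Emp2 they were F2rl1 (0.99), Gpr137b (0.99) and again Frrs1 (0.99).

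The paralogs had other neighbors. Tppp3 was closest to Dbp (0.99), a circadian transcription factor, and Tmem176b (0.98), and Emp1 to Tfpi (0.9986), an inhibitor of coagulation, and Cav2 (0.9972), a caveolin. Emp3 was closest to Metrn and Tmem238 (both 0.99), Add3 to Tbck and Ubxn2b (both 0.99), Add1 to Gm44349 (0.97) and Ptcd1 (0.96), and Pmp22 to Tspan3 (0.95) and Vapa (0.94). Genes at r of at least 0.95 numbered 522 for Emp1, 217 for Add3, 178 for Emp3, 9 for Tppp3, 5 for Add1 and 1 for Pmp22. For the picked genes they numbered 9 for Ccdc68, 14 for Tppp, 40 for Add2 and 55 for Emp2. Among the 10 genes themselves, Add2 and Emp2 were the most alike (r = 0.98), Add3 followed Emp1 (0.91), and Add1 ran opposite to Pmp22 (−0.82), as Emp3 did to Emp1 (−0.81) and Add3 (−0.81).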

How the data were processed

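RNA of 8 subcutaneous LLC tumors, 4 wild-type and 4 ΔAgo2, was sequenced after TRIzol lysis as stranded paired-end mRNA libraries. The titles gave each tumor's group and number. The authors deposited raw counts per gene, whole numbers with no normalization, and TPM values, made by scaling counts by gene length and to a common total in each library. The submitters' processing notes name STAR and mm10. For cultured cells, the study's methods describe alignment to a ribosomal RNA database and mm10, counting with featureCounts and testing with DESeq2. For the tumors, the counter, annotation release, strand setting and treatment of multi-mapping reads are not given in the sources used here, so counts of overlapping genes are uncertain. No table column lacked a sample (0 unused).

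Identifiers were matched to GENCODE M21 (GRCm38), and 55394 of 55487 matched, 99.3% with their version. Counts were fitted in R 4.3.3 with edgeR 4.0.16 (filterByExpr, TMM, quasi-likelihood test, no covariate), with Benjamini-Hochberg adjustment over 16061 genes at 0.05. CPM uses TMM-scaled totals, and log2 CPM for correlations a prior count of 2. A fold change of a low gene depends on this kind of setting. Ratios of paralogs were compared by exact two-sided permutation over 70 assignments. The fit was tested on simulated data. Total counts ran from 7903288 to 268564145 per library, and the limit that a count of 0 allows was set at 3 counts, covering counting error only. Libraries of 1 group differed by far more than counting error, so all were kept as separate replicates. The titles call them biological replicates.

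Alternatives were DESeq2 1.42.0 (its size factors or its Wald test), limma 3.58.1 voom with quality weights, library totals, no count filter or at least 10 counts in every library, a replicate block, each library left out, thinning to the shallowest library, GC and length corrections (fitted on genes averaging 50 counts or more), and limma fits to TPM on the log2(value + 1) or log2(value + 0.1) scale, for genes of at least 0.5 TPM in 4 libraries or with no filter. Leaving out wild-type tumor 4 and ΔAgo2 tumor 1 together was chosen after seeing the data. The genes named were the 10 genes and Ago2, the 3 (picked) or 2 (paralogs) most correlated genes, every called gene of a related list, and marker genes that were called, had no reads or were the most abundant. Perp, Cdh1 and Epcam were named after their values were seen. The 10 genes, the lists and the tests were chosen with earlier results of these data known.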

Additional observations from a re-analysis of the deposited data

Results flagged for a closer look

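In 4 of 64 sets of 4 tumors, the highest or lowest tumor stood apart from the other tumors of its group by more than Dixon's 95% limit, and chance alone gives about 3.2. In ΔAgo2 tumor 1 Emp3 measured 247 CPM, while its 3 group members lay between 95.8 and 106 CPM. The summed CPM of skeletal muscle markers was 3685 in wild-type tumor 3, against 261 to 478 in the other wild-type tumors. Adipocyte markers summed to 206 CPM in wild-type tumor 3, against 21.1 to 41.4 in the rest of its group, and to 370.4 CPM in ΔAgo2 tumor 1, against 10.7 to 39.0. Without ΔAgo2 tumor 1 the log2 fold change of Emp3 was −0.87 in place of −0.41, with no call in either case.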

How the results depend on the processing

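The log2 fold changes of Ccdc68, Tppp, Add2, Emp2 and Tppp3 stayed positive under every alternative that tested them. These were 23 for each, but 22 for Ccdc68 and Tppp, which did not pass the filter of at least 10 counts in every library. Values of genes not called turned sign 4 times, to 0.0104 for Emp3 with the GC correction and to 0.10 for Add1 on each of the 3 log2 TPM settings. Tppp3 lost its call in 4 of 23 alternatives (the replicate block and the 3 single libraries named in the report). Counts of called genes moved far more. Against 219 higher, 341 lower and 3 genes in the 5 related lists, DESeq2's Wald test gave 1129, 1136 and 18, limma voom 2393, 2083 and 34, the length correction 448, 730 and 11, and no count filter 515 higher. On log2(TPM + 1) the counts were 77, 76 and 0, on log2(TPM + 0.1) 41, 66 and 0, and on log2(TPM + 1) with no filter 33, 44 and 0. The related lists held 5 called genes with at least 10 counts in every library and 6 after thinning. Leaving out 1 library gave 20 (without ΔAgo2 tumor 4) to 979 (without ΔAgo2 tumor 1) genes called higher, 68 to 814 called lower and 0 to 13 in the lists, with the same 2 libraries at the ends for genes called higher and lower. Without wild-type tumor 4 and ΔAgo2 tumor 1 together, 422 genes were called higher and 5 in the lists. The cause of these moves was not tested.

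Replicate numbers were the same in both genotypes, but same-numbered tumors did not deviate together (correlations of −0.24, 0.10, −0.04 and −0.29 across genes), so they share only a number. With the replicate block, 13 genes were called higher, 57 lower and 0 in the lists, and Tppp3 had an edgeR adjusted p of 0.116 at a log2 fold change of 2.00. With the block and the GC correction, the counts were 124, 187 and 1. The 4 paralog ratios kept their direction under all 12 alternatives each, some of which leave too few assignments to reach the threshold. Depth limits Ccdc68 and Tppp most, whose wild-type values rest on at most 65 reads.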
